A study of Mus musculus with 16 samples.

Results

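Pretreated bone-marrow derived macrophages were compared 6 h after interferon-gamma with the same kind of cells at 0 h. The comparison rests on 4 of the 16 arrays of the series, the 2 pretreated arrays at 6 h and the 2 pretreated arrays at 0 h that were numbered in the same array set. The assay was a 1-colour Affymetrix gene array for total RNA, which gave log2 intensities for 19938 genes. All cells came from H3.3-HA knock-in mice, which carry a tagged histone H3.3, and were grown out with L-cell conditioned medium, so both the naive and the pretreated groups share this genotype and culture. The groups used below were naive cells at 0 and 6 h and pretreated cells at 0 and 6 h in array set 1, and naive cells at 0 and 3 h and pretreated cells at 0 and 3 h in array set 2, each with 2 arrays. Naive cells at 0 h had seen no interferon as far as the labels say, and the array titles mark the pretreated cells as given interferon beforehand. Of the dose and length of the pretreatment, any interval before 0 h, and the number, sex and age of the mice, nothing is given in the sources used here. No pretreated cells were held for 6 h without new interferon, so an effect of interferon and one of 6 h in the dish or of handling cannot be told apart. Nothing in the labels says that the 2 arrays of a group came from separate cultures or mice, so the p-values rest on how these samples vary, and that variation may be technical.

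Interferon-gamma binds a receptor made of Ifngr1 and Ifngr2 chains, which activates the kinases Jak1 and Jak2. The signal reaches gamma-activated sites in DNA and switches on a first set of genes, among them the transcription factor Irf1, which then acts on interferon-stimulated response elements of further genes. In macrophages this programme arms defence against intracellular microbes, raises antigen presentation and slows division. The inhibitor Socs1 is induced by the same signal and shuts the Jak kinases down.

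Correlation between the 2 arrays over all genes was 0.9896 for pretreated cells at 0 h, the lowest of the 8 pairs in the series, and 0.995 for pretreated cells at 6 h, the highest. Csf1r, the receptor for the macrophage growth factor, read 13.49 and 13.52 at 0 h and 13.35 and 13.38 at 6 h. The macrophage markers Adgre1, Cd68, Itgam and Mertk also did not pass the test, with log2 changes between -0.25 and 0.03, while Spi1 and the Fc receptor gene Fcgr1, named after its value was seen, passed as higher (0.51 and 0.75, adjusted p = 0.011 and 0.0303). The call of Fcgr1 was lost without any 1 of the 4 arrays (adjusted p up to 0.181). No marker of T and NK cells (12 measured), B and plasma cells (8), neutrophils and mast cells (13) or fibroblasts and stroma (14) passed in limma, with 0 of them at an unadjusted p under 0.05, and 1 of 9 dendritic cell markers did, Clec9a. Their highest summed linear intensities at either time were 1229, 1245, 947 and 2088. The summed linear intensity of the 9 dendritic cell markers was 5624 and 4358 at 0 h and 7304 and 7656 at 6 h. This sum includes Clec9a itself, so it does not show how the other markers moved. The median log2 level of the 9 was 6.94 and 6.72 at 0 h and 7.08 and 6.93 at 6 h. A part of dendritic cells in the rise of Clec9a was not tested. H3f3a, a gene for histone H3.3, stayed close to the dim limit of log2 6.5, with 6.49 and 6.65 at 0 h and 6.23 and 6.33 at 6 h (adjusted p = 0.429).

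Over all genes 1126 passed at an adjusted p under 0.05 in limma, which is 5.65% of those tested, with 576 higher (2.89%) and 550 lower (2.76%) at 6 h. The median log2 change of all genes was -0.032. A log2 change of 1 is a factor of 2, and 236 of the rises and 230 of the falls were at least that large. In all 1126 the arrays of the 2 times did not overlap, as was also so for 7737 of the 19938 genes. The count was 861 without pretreated 0 h array 1, 725 without pretreated 0 h array 2, 486 without pretreated 6 h array 1 and 514 without pretreated 6 h array 2.

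Upp1, a uridine phosphorylase that salvages pyrimidines, rose most among the genes that passed. It read 6.91 and 6.94 at 0 h and 11.49 and 11.38 at 6 h, a log2 change of 4.51 ± 0.27 (SE, n = 2 arrays per time, limma adjusted p = 2.42e-06). The 0 h arrays lay close together and far below both 6 h arrays. Cnn3, an actin-binding calponin, read 7.43 and 8.35 at 0 h and 12.28 and 12.34 at 6 h (4.42 ± 0.41, adjusted p = 7.05e-05). Ptgs2, the inducible cyclooxygenase that makes prostaglandin precursors, read 7.39 and 7.26 and then 11.78 and 10.95 (4.04 ± 0.50, adjusted p = 0.000431). In both genes the times were well apart, and the spread was at 0 h for Cnn3 and at 6 h for Ptgs2. Others of the 12 largest rises were Klrk1 (NKG2D, an activating receptor, 3.94), Sectm1a (3.86), the GTPase gene Gbp11 (3.66), Clec9a (a lectin receptor for dead-cell actin, 3.62), Chrm3 (the muscarinic M3 receptor, 3.56), Gm4841 (3.49), Ak4 (a mitochondrial adenylate kinase, 3.39), Clic5 (3.38) and Gbp2b (3.32). Of these 12, Ak4 alone lost its call with 1 array out, at an adjusted p of 0.0535 without pretreated 6 h array 2.

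S1pr1, a receptor for the lipid sphingosine 1-phosphate that guides leaving from tissues, fell most. It read 10.63 and 10.49 at 0 h and 6.80 and 6.74 at 6 h (-3.79 ± 0.18, adjusted p = 7.14e-07). Slc40a1, which encodes ferroportin, the iron exporter of macrophages, read 12.11 and 12.30 and then 8.84 and 8.65 (-3.46 ± 0.32, adjusted p = 7.1e-05). Both genes went from bright to near or towards the dim limit, and the arrays of each time lay close together. Cx3cr1, the fractalkine receptor, read 10.68 and 10.60 at 0 h and 7.87 and 7.82 at 6 h (-2.80 ± 0.31, adjusted p = 0.000207). Hpgd, the enzyme that breaks prostaglandins down, read 11.71 and 12.61 and then 8.95 and 10.39 (-2.49 ± 0.50, adjusted p = 0.0102). Its arrays did not overlap between times, but array 2 was the higher at each time, and its call was lost without pretreated 0 h array 2 or pretreated 6 h array 1 (adjusted p up to 0.127). The rest of the 12 largest falls were Lhfpl2 (-3.23), Ssh2 (a cofilin phosphatase, -2.43), Abcd2 (a peroxisomal fatty acid transporter, -2.33), Arrdc3 (an arrestin-like adaptor, -2.27) and the cell division genes Prc1, Bub1 and Ckap2 and the DNA glycosylase gene Neil3 (-2.19 to -2.13). Ssh2 and Abcd2 lost their calls without the same 2 arrays as Hpgd (adjusted p up to 0.0904 and 0.0694).

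**Figure D1:**
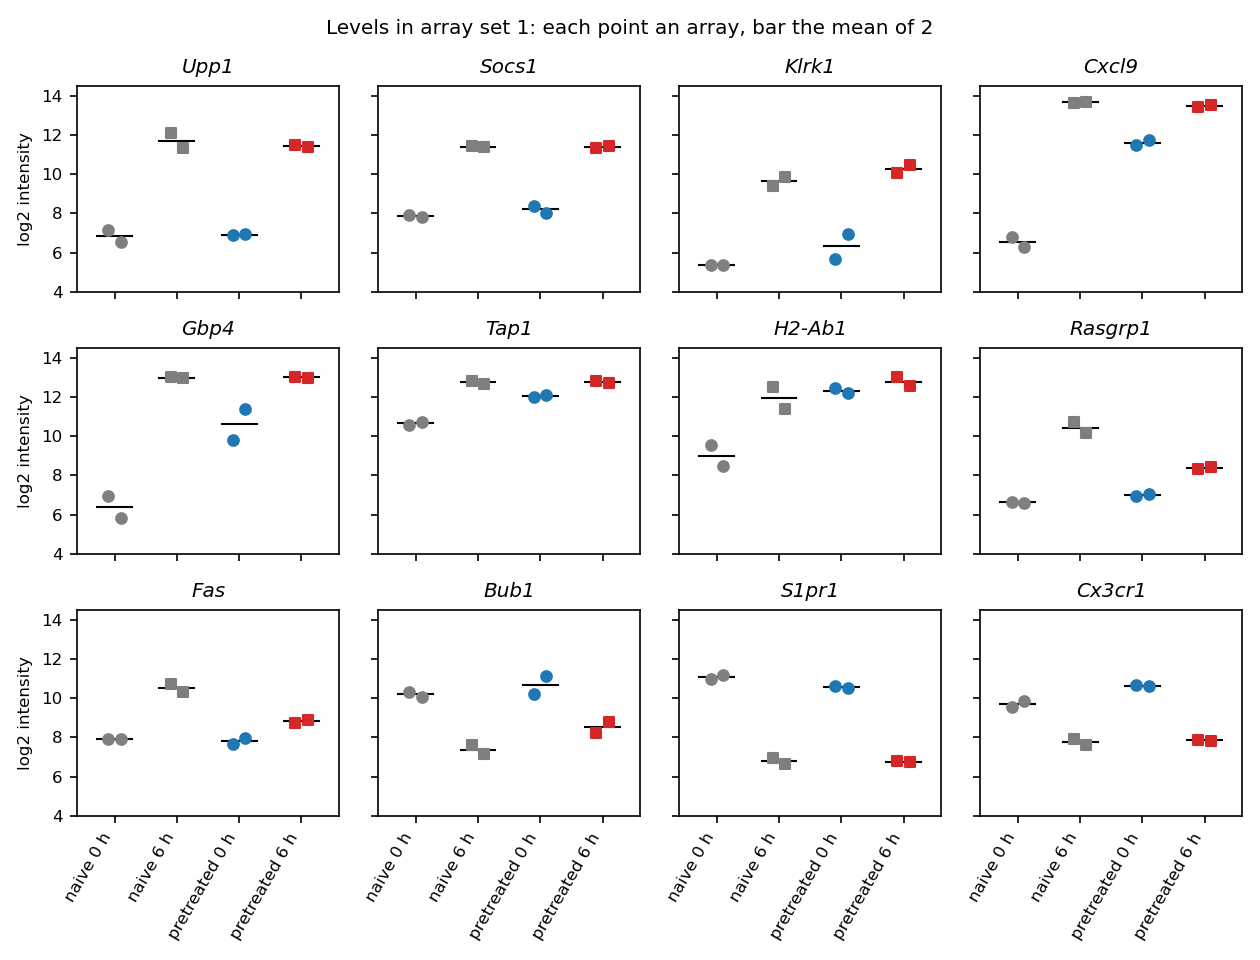
Log2 intensity of 12 genes on the 8 arrays of array set 1, grouped as naive or pretreated cells at 0 and 6 h, with each point an array and each bar the mean of 2. Upp1, Socs1 and Klrk1 start at or below 8.39 in both kinds of cell. Cxcl9 and Gbp4 start high in pretreated cells and end close to the naive 6 h level, Cxcl9 just below it. Rasgrp1 and Fas end further below it.

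Interferon-inducible GTPases attack the vacuoles in which bacteria and parasites live. All 10 measured members passed as higher, against 2.89% of all genes, with a median log2 change of 1.85 against -0.032 over all genes. Gbp5, a guanylate-binding protein, read 8.64 and 9.96 at 0 h and 12.57 and 12.60 at 6 h (3.28 ± 0.35, adjusted p = 0.000179). Gbp11 read 8.09 and 9.28 and then 12.22 and 12.48 (3.66 ± 0.35, adjusted p = 9.04e-05). Each time point kept apart from the other, and the spread was between the 2 arrays at 0 h. Gbp4 read 9.82 and 11.41 at 0 h and 13.04 and 12.98 at 6 h (2.40 ± 0.42, adjusted p = 0.00431). Iigp1, of the immunity-related GTPase family, read 10.70 and 11.84 and then 12.90 and 13.04 (1.70 ± 0.27, adjusted p = 0.00249). At 6 h the members were close to one another on both arrays, with list medians of 12.61 and 12.58. At 0 h array 2 was above array 1 in 10 of 10 members, by a median of 1.08, whereas at 6 h it was above in 5 of 10, by a median of 0.01. The list's median change was 1.48 without pretreated 0 h array 1 and 2.36 without pretreated 0 h array 2, and leaving out 1 of the 4 arrays kept 9 or 10 members past the threshold. Gbp8 was a member whose call did not last (1.94 ± 0.47, adjusted p = 0.0315), with an adjusted p of up to 0.231 without pretreated 0 h array 1 or either 6 h array. A further 9 members of the family lie only on features shared between genes and were not analysed here.

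Gbp5 is shown for the sites in its promoter. The sequence is the 250 bases before the start of its transcript in RefSeq (GRCm38.p6, chr3:142496684-142496933, plus strand), and capitals mark the letters TTCNNNGAA, a gamma-activated site, and the interferon-stimulated response element, searched as GAAA, any 2 bases and GAAA again, both on either strand.
Gbp5: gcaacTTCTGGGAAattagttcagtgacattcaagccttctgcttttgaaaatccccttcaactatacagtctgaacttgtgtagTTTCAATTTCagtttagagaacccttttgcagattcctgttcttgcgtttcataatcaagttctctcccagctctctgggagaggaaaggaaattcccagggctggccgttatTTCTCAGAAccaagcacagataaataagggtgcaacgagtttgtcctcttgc
The response element was found in 5 of 5 GTPase genes with a window in RefSeq's table, in 39 of 448 genes that rose (8.71%), in 8 of 28 that rose by at least 4-fold (28.6%) and in 519 of 15614 of all genes (3.32%). TTCNNNGAA was found in 49 of the 448 genes that rose (10.9%) and in 7.83% of all genes. These windows ran from 250 bases before to 50 bases after the start, and a match is a description of letters, not of binding.

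Among interferon receptors, Jak kinases, Stats and Irfs, 7 of 24 measured members rose and 1 fell, against 2.89% and 2.76% of all genes. The median change was 0.23. Batf2, a leucine zipper factor that pairs with Irf proteins, read 8.69 and 8.92 at 0 h and 12.13 and 12.04 at 6 h (3.28 ± 0.18, adjusted p = 1.85e-06). Irf1 read 11.47 and 11.90 and then 13.11 and 13.11 (1.43 ± 0.15, adjusted p = 0.000149). Irf8, which also specifies macrophages, read 12.39 and 12.24 and then 13.29 and 13.29 (0.97 ± 0.15, adjusted p = 0.00224). All 3 factors were higher on both 6 h arrays, with the arrays of 6 h nearly equal. Stat3, the factor downstream of interleukin-6 and interleukin-10, rose by 0.73 ± 0.11 (adjusted p = 0.00234). Ifngr1, the ligand-binding chain of the receptor, was the member that fell, from 12.45 and 12.65 to 11.85 and 11.83 (-0.70 ± 0.14, adjusted p = 0.0114). That call was lost without pretreated 0 h array 2 or either 6 h array (adjusted p up to 0.0931). Jak2 changed by 0.59 ± 0.18 and Irf4 by -0.83 ± 0.30 without passing (adjusted p = 0.0829 and 0.167). The list counted 5 rises without either 0 h array and 4 without either 6 h array.

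Feedback inhibitors of cytokine signalling rose in 5 of 15 measured members and fell in none, against 2.89% and 2.76% of all genes. Socs1 read 8.39 and 8.02 at 0 h and 11.34 and 11.45 at 6 h (3.19 ± 0.15, adjusted p = 7.14e-07). Socs3, which restrains receptors that use gp130, read 8.5 and 8.13 and then 10.47 and 10.24 (2.04 ± 0.21, adjusted p = 0.000135). Both kept their calls with any of the 4 arrays left out. The phosphatase gene Ptpn2 and Cish rose by 0.78 ± 0.18 and 0.72 ± 0.17 (adjusted p = 0.0248 and 0.0272). Ptpn2 lost its call without pretreated 0 h array 1 or either 6 h array (adjusted p up to 0.206), and Cish without any 1 of the 4 (up to 0.158). Usp18, which restrains the type I interferon receptor, read 11.37 and 10.58 at 0 h and 11.79 and 11.31 at 6 h, so that its times overlapped (0.57 ± 0.34, adjusted p = 0.535). The list counted 3 rises without pretreated 0 h array 2 and 2 without any other array.
The promoters of the first inhibitor and of 2 other genes that rose are shown for where the sites lie, each as the 110 bases before the start in RefSeq, GRCm38.p6: Socs1 at chr16:10785537-10785646 (minus strand), Irf1 at chr11:53769904-53770013 (plus strand) and the surface receptor gene Slamf8 at chr1:172590569-172590678 (minus strand). Capitals mark the response element in Socs1 and Slamf8 and TTCNNNGAA in Irf1.
Socs1: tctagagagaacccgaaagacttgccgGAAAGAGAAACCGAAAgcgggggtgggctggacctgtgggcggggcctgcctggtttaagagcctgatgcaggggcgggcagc
Irf1: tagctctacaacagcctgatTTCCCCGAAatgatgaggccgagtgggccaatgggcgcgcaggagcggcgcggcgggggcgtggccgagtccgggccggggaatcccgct
Slamf8: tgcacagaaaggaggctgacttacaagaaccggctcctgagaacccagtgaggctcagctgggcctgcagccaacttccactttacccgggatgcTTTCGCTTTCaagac
In Socs1 a pair of overlapping matches runs from position -83 to -68 from the start. In Irf1 the match runs from -90 to -82, and in Slamf8 from -15 to -6 on the opposite strand.

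Chemokines split, with 4 of 24 measured genes higher and 3 lower (median -0.07), against 2.89% and 2.76% of all genes. The ligands of the T cell receptor Cxcr3 rose. Cxcl10 read 10.56 and 10.14 at 0 h and 13.48 and 13.20 at 6 h (2.99 ± 0.28, adjusted p = 7.05e-05). Cxcl11 read 7.55 and 7.18 and then 10.12 and 9.29 (2.34 ± 0.33, adjusted p = 0.00105). Cxcl9 read 11.49 and 11.72 and then 13.45 and 13.56 (1.90 ± 0.17, adjusted p = 5.84e-05). The times were apart in each, and Cxcl9 was already bright at 0 h. Ccl8, a monocyte attractant, read 7.22 and 7.70 and then 9.20 and 9.72 (1.99 ± 0.31, adjusted p = 0.00228). These 4 rises kept their calls with any of the 4 arrays left out. The monocyte attractant Ccl2 read 8.71 and 9.30 and then 10.33 and 10.40 (1.36 ± 0.78, adjusted p = 0.512), and Ccl3 12.97 and 12.06 and then 11.35 and 10.33 (-1.68 ± 0.52, adjusted p = 0.098). The fall of Cxcl2, a neutrophil attractant, from 8.15 and 8.22 to 6.66 and 6.36 (-1.68 ± 0.43, adjusted p = 0.038) was lost without any 1 of the 4 arrays (adjusted p up to 0.237), as was that of Ccl9 (-0.56, up to 0.265). Falls numbered 1 without pretreated 0 h array 1 and 0 without any other array.

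Of 26 measured cytokine and cytokine receptor genes 7 rose and none fell, against 2.89% and 2.76% of all genes. Tnfsf10, the death ligand TRAIL, read 8.37 and 8.97 at 0 h and 11.82 and 11.83 at 6 h (3.16 ± 0.21, adjusted p = 6.76e-06). Il1rn, the natural antagonist of interleukin-1, read 8.61 and 8.23 and then 10.04 and 10.19 (1.70 ± 0.20, adjusted p = 0.000351). Il15ra, which presents interleukin-15, rose by 1.24 ± 0.20 (adjusted p = 0.00266). The 3 genes were higher on both 6 h arrays and kept their calls with any array left out. Il18bp, which traps interleukin-18, rose by 1.03 ± 0.20 and Il27 by 1.06 ± 0.22 (adjusted p = 0.00761 and 0.0131). Il18bp lost its call without pretreated 0 h array 1 or pretreated 6 h array 1 (adjusted p up to 0.0767), and Il27 without any 1 of the 4 (up to 0.0953). The inflammatory cytokine Tnf read 9.97 and 8.99 at 0 h and 11.66 and 10.41 at 6 h, with array 1 the higher at each time (1.55 ± 0.65, adjusted p = 0.263). Il12b stayed near the dim limit on all 4 arrays, between 6.28 and 6.61. The list counted 3 rises without pretreated 0 h array 1 or pretreated 6 h array 1, and 4 without either of the other two.

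MHC class I presentation shows peptides from inside the cell to T cells. Its genes rose in 9 of 18 measured members and fell in none (median 0.42), against 2.89% and 2.76% of all genes. Nlrc5, the transactivator of class I genes, read 11.08 and 11.39 at 0 h and 12.43 and 12.43 at 6 h (1.20 ± 0.14, adjusted p = 0.000324). Tapbpl, a peptide editor, read 10.11 and 10.23 and then 11.63 and 11.56 (1.42 ± 0.15, adjusted p = 0.000162). Psmb9, an immunoproteasome subunit, read 11.13 and 11.24 and then 12.01 and 11.89 (0.77 ± 0.10, adjusted p = 0.0006). All 3 were bright before the new interferon and higher after it on both arrays. The immunoproteasome gene Psmb10 and the peptide transporter gene Tap2 rose by 0.88 ± 0.12 and 0.84 ± 0.13 (adjusted p = 0.00078 and 0.00266), and the class I-like gene H2-T24 by 1.11 ± 0.18. Psme1, a proteasome activator subunit, and Tapbp, the loading chaperone tapasin, changed by 0.35 and 0.34 without passing (adjusted p = 0.085 and 0.0992). The list counted between 6 and 9 rises with 1 array left out, the fewest without pretreated 6 h array 1.

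MHC class II genes, which present peptides from outside the cell, passed as higher in 2 of 12 measured members, against 2.89% of all genes. None passed as lower, against 2.76% of all genes, and the median was 0.27. Ciita, the class II transactivator, read 8.44 and 9.01 at 0 h and 11.59 and 11.44 at 6 h (2.79 ± 0.54, adjusted p = 0.00811). H2-DMa, part of the peptide exchanger, read 11.50 and 11.63 and then 12.64 and 12.69 (1.10 ± 0.19, adjusted p = 0.0036). These were the 2 members that passed, and Ciita lost its call without pretreated 0 h array 1 or either 6 h array (adjusted p up to 0.0689). H2-Ab1 read 12.44 and 12.19 at 0 h and 13.01 and 12.54 at 6 h (0.45 ± 0.90, adjusted p = 0.961). H2-Aa read 12.48 and 12.07 and then 12.79 and 12.23 (0.24 ± 1.38, adjusted p = 0.991). Cd74, the invariant chain, read 12.98 and 12.94 and then 13.33 and 13.20 (0.31 ± 0.96, adjusted p = 0.982). The class II chains were bright at both times, and their standard errors, which pool the spread of all 16 arrays, were larger than their changes.

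Antiviral interferon-stimulated genes rose in 12 of 41 measured members and fell in none (median 0.41), against 2.89% and 2.76% of all genes. Zbp1, a sensor of Z-form nucleic acids, read 11.54 and 11.63 at 0 h and 12.79 and 12.84 at 6 h (1.23 ± 0.21, adjusted p = 0.00363), and it kept its call with any array left out. Ifit2 rose from 12.38 and 12.28 to 13.27 and 13.13 (0.87 ± 0.20, adjusted p = 0.024). Oas3, which makes the activator of RNase L, rose from 11.88 and 11.53 to 12.52 and 12.45 (0.78 ± 0.18, adjusted p = 0.0231). The ranges did not overlap, but Ifit2 lost its call without any 1 of the 4 arrays (adjusted p up to 0.181), and Oas3 without pretreated 0 h array 2 or either 6 h array (up to 0.182). Mx1, an antiviral dynamin-like GTPase, read 9.05 and 9.55 and then 10.67 and 10.55 without passing (1.31 ± 0.49, adjusted p = 0.191). The count fell to 5 without pretreated 0 h array 1, 4 without pretreated 0 h array 2, 2 without pretreated 6 h array 1 and 3 without pretreated 6 h array 2.

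Of 19 measured genes of the Ifi200 family, the inflammasomes and lytic cell death, 5 rose and none fell. The shares of all genes were 2.89% and 2.76%. Ifi205, of the p200 family of nuclear proteins, read 10.05 and 10.09 at 0 h and 12.58 and 12.67 at 6 h (2.55 ± 0.16, adjusted p = 5.07e-06). Mlkl, the pore-forming effector of necroptosis, read 10.16 and 10.76 and then 11.62 and 11.82 (1.26 ± 0.17, adjusted p = 0.00078). Both were higher on every 6 h array. Casp4, the receptor for cytosolic lipopolysaccharide, rose by 1.23 ± 0.26 (adjusted p = 0.0139), a call that was lost without any 1 of the 4 arrays (up to 0.114). With any 1 array left out 3 members passed.

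Costimulatory and surface molecules of activated macrophages rose in 13 of 25 measured members and fell in 1, against 2.89% and 2.76% of all genes. Their median was 0.77. Klrk1 read 5.70 and 6.96 at 0 h and 10.05 and 10.49 at 6 h (3.94 ± 0.40, adjusted p = 0.000127). Sectm1a read 7.21 and 8.37 and then 11.48 and 11.83 (3.86 ± 0.38, adjusted p = 0.000109). Clec9a read 6.51 and 8.12 and then 10.65 and 11.21 (3.62 ± 0.39, adjusted p = 0.000201). Array 2 was the higher of the pair at 0 h in each, by more than at 6 h, and the 2 times stayed apart. Xcr1, the chemokine receptor that marks the same dendritic cells as Clec9a, read 7.01 and 6.66 and then 7.70 and 7.40 without passing (0.72 ± 0.28, adjusted p = 0.221). Slamf8, a receptor of the SLAM family, read 9.34 and 10.27 and then 12.65 and 12.51 (2.77 ± 0.30, adjusted p = 0.000214). Cd69, an early activation marker that retains S1pr1 inside the cell, read 8.56 and 8.18 and then 11.30 and 10.60 (2.58 ± 0.34, adjusted p = 0.000741). Cd274, the checkpoint ligand PD-L1, read 11.07 and 10.92 and then 13.09 and 12.87, yet its standard error over all arrays kept it from passing (1.98 ± 0.55, adjusted p = 0.059). The count of rises was 9 and 10 without pretreated 0 h arrays 1 and 2, and 8 without either 6 h array.

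Among macrophage activation enzymes and effectors 2 of 21 measured genes rose and none fell, against 2.89% and 2.76% of all genes. Upp1 is described above. Acod1, which makes the antimicrobial metabolite itaconate, read 11.10 and 11.46 at 0 h and 13.10 and 12.89 at 6 h (1.72 ± 0.28, adjusted p = 0.00272). Nos2, the inducible nitric oxide synthase, read 6.98 and 6.62 and then 8.6 and 8.14 (1.57 ± 0.48, adjusted p = 0.0904). Ch25h, which makes the antiviral oxysterol 25-hydroxycholesterol, read 6.58 and 7.90 and then 9.96 and 11.35 (3.42 ± 1.08, adjusted p = 0.106). In both of the latter the times did not overlap and the test was not passed. In array set 1 alone, where the spread of set 2 does not enter, Ch25h passed (adjusted p = 0.0138), as did Ccl2 (0.0108), Cd274 (0.0158), Mx1 (0.0175) and Hmox1 (0.0477). In a fit of the 4 pretreated arrays Nos2 (0.0134) and Irf4 (0.0249) passed. Calls were also lost in these fits, for at least 11 named genes in array set 1 alone and at least 10 in the 4 pretreated arrays.

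In the TLR and NF-kB pathway 3 of 35 measured members rose and 3 fell, against 2.89% and 2.76% of all genes. Ptgs2 had the largest change. Tnfaip3, the ubiquitin-editing inhibitor A20, read 8.76 and 8.46 at 0 h and 10.35 and 9.93 at 6 h (1.53 ± 0.32, adjusted p = 0.0131). Cd14, the co-receptor for lipopolysaccharide, read 12.20 and 11.88 and then 11.17 and 10.79 (-1.06 ± 0.23, adjusted p = 0.0151). Tlr2, the receptor for bacterial lipoproteins, read 10.82 and 10.66 and then 10.12 and 9.41 (-0.98 ± 0.26, adjusted p = 0.0459). Neither time overlapped the other in these genes. Without pretreated 0 h array 2 or pretreated 6 h array 1 Tnfaip3 lost its call (adjusted p up to 0.137), Cd14 lost it without pretreated 0 h array 1 or pretreated 6 h array 2 (up to 0.163), and Tlr2 without either 0 h array or pretreated 6 h array 2 (up to 0.422). Rises numbered 1 without pretreated 6 h array 1 and 3 without any other array, and falls numbered 1, 1, 2 and 0 without pretreated 0 h arrays 1 and 2 and pretreated 6 h arrays 1 and 2.

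Complement genes rose in 4 of 14 measured members and fell in 1, against 2.89% and 2.76% of all genes. C1ra, a protease of the classical pathway, read 7.89 and 8.22 at 0 h and 9.17 and 9.17 at 6 h (1.11 ± 0.14, adjusted p = 0.000584), and it kept its call with any array left out. Cfb, factor B of the alternative pathway, read 9.18 and 9.47 and then 10.43 and 10.86 (1.32 ± 0.26, adjusted p = 0.0106). C5ar1, the receptor for the fragment C5a, read 11.80 and 11.75 and then 10.63 and 10.58 (-1.17 ± 0.30, adjusted p = 0.0385). Cfb lost its call without pretreated 0 h array 1 or pretreated 6 h array 2 (adjusted p up to 0.121) and C5ar1 without any 1 of the 4 (up to 0.201). The rises numbered 1 without either pretreated 0 h array 1 or pretreated 6 h array 2, and 3 without either of the other two.

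Of 30 measured immediate early genes and MAPK phosphatases 1 passed as higher and 1 as lower, near the 2.89% and 2.76% of all genes, and 10 were at an unadjusted p under 0.05, as were 2946 of all 19938 genes. Zfp36, tristetraprolin, which degrades cytokine messages, rose from 10.84 and 11.01 to 11.64 and 11.78 (0.79 ± 0.14, adjusted p = 0.00614). Dusp1, a phosphatase of p38 and JNK, fell from 11.20 and 11.01 to 9.45 and 8.97 (-1.90 ± 0.43, adjusted p = 0.0198). Zfp36 lost its call without pretreated 0 h array 1 or pretreated 6 h array 2 (adjusted p up to 0.0738), and Dusp1 without any 1 of the 4 (up to 0.175).

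**Figure D2:**
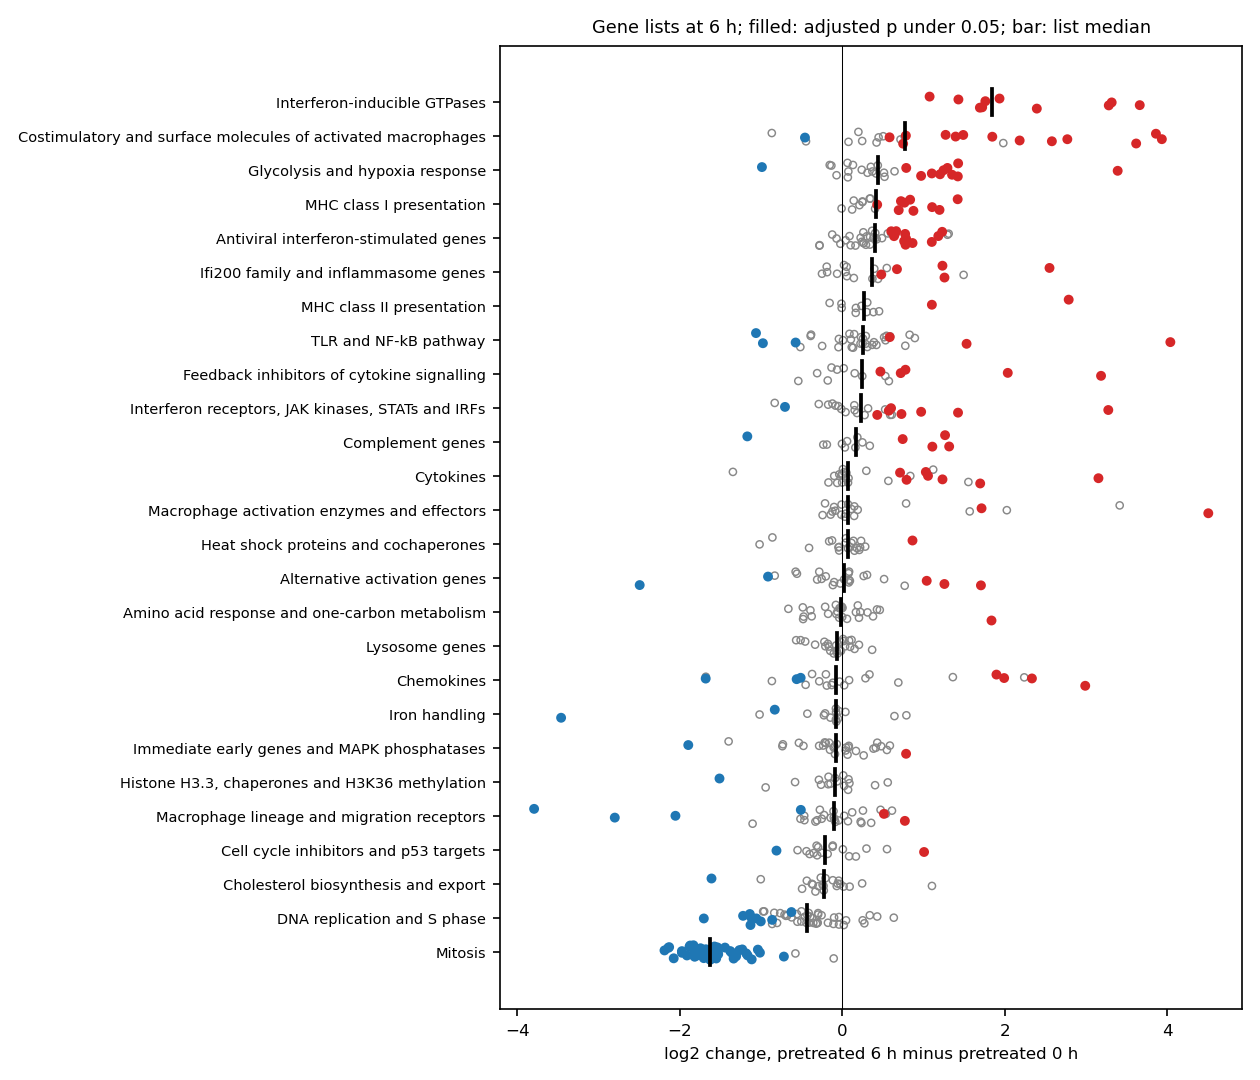
Log2 change from 0 to 6 h in pretreated cells for each measured member of 26 gene lists, ordered by the list's median (black bar), with filled points for genes at an adjusted p under 0.05 (red higher, blue lower). The GTPases lie wholly to the right, with a median of 1.85, and the mitosis genes lie to the left, with a median of -1.63.

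Glycolysis and hypoxia response genes rose in 10 of 27 measured members and fell in 1 (median 0.44), against 2.89% and 2.76% of all genes. Pfkp, a phosphofructokinase that commits sugar to glycolysis, read 10.76 and 10.93 at 0 h and 12.19 and 12.34 at 6 h (1.42 ± 0.18, adjusted p = 0.00047). Slc2a1, the glucose transporter GLUT1, read 11.12 and 11.21 and then 12.57 and 12.62 (1.43 ± 0.28, adjusted p = 0.00873). Ak4 read 6.45 and 7.03 and then 9.88 and 10.38 (3.39 ± 0.60, adjusted p = 0.00473). All 3 were higher on both 6 h arrays. The arrays of a time lay close together for Pfkp and Slc2a1 and further apart for Ak4. The lactate exporter gene Slc16a3 rose by 1.35 ± 0.34 (adjusted p = 0.0383), and Bnip3, which directs mitochondria to autophagy, by 1.30 ± 0.24 (adjusted p = 0.00563). The member that fell was the glucose transporter gene Slc2a3 (-0.99 ± 0.13, adjusted p = 0.000846), named after its value was seen. Pfkp kept its call with any array left out. Slc2a1 lost it without pretreated 0 h array 1 or either 6 h array (adjusted p up to 0.0696), Bnip3 without pretreated 0 h array 1 or pretreated 6 h array 2 (up to 0.0761), Ak4 without pretreated 6 h array 2 (0.0535) and Slc16a3 without any 1 of the 4 (up to 0.217). The list's rises numbered 3 without pretreated 0 h array 1, 7 without pretreated 0 h array 2, 5 without pretreated 6 h array 1 and 2 without pretreated 6 h array 2.

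Of 16 measured iron handling genes 2 passed as lower, against 2.76% of all genes, and none as higher, with a median of -0.08. Besides Slc40a1, the ferrireductase gene Steap3 fell from 10.25 and 9.83 to 9.25 and 9.18 (-0.83 ± 0.19, adjusted p = 0.0241), a call lost without pretreated 0 h array 1 or either 6 h array (adjusted p up to 0.183). Hmox1, which frees iron from haem, read 11.58 and 11.97 and then 10.48 and 11.03 (-1.02 ± 0.34, adjusted p = 0.127). Tfrc, the transferrin receptor for uptake of iron, read 8.68 and 8.46 and then 9.30 and 9.13 (0.64 ± 0.33, adjusted p = 0.413).

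Mitosis genes fell almost as a whole. Of 51 measured members 49 passed as lower, against 2.76% of all genes, with none higher and a median log2 change of -1.63. Fewer dividing cells and less RNA of these genes per cell cannot be told apart in such samples. Prc1, which bundles microtubules in the dividing spindle, read 10.07 and 10.58 at 0 h and 8.08 and 8.20 at 6 h (-2.19 ± 0.21, adjusted p = 0.000109). Bub1, a kinase of the spindle checkpoint, read 10.19 and 11.11 and then 8.23 and 8.78 (-2.14 ± 0.26, adjusted p = 0.000383). Plk1, the polo-like kinase that drives entry into mitosis, read 11.26 and 11.60 and then 9.39 and 9.85 (-1.82 ± 0.15, adjusted p = 3.66e-05). The times were apart in all 3, and array 2 was the higher at both. Across the list array 2 was above array 1 in 51 of 51 members at 0 h, by a median of 0.69, and in 49 of 51 at 6 h, by a median of 0.46. The list's median change ranged from -1.27 without pretreated 0 h array 2 to -1.99 without pretreated 0 h array 1, and 43 to 49 members passed with 1 array left out. The 2 members that did not pass were Bub3, a checkpoint protein that also acts outside division, at 10.96 and 11.17 and then 10.92 and 11.003 (-0.10 ± 0.12, adjusted p = 0.881), and Ube2c, the ubiquitin carrier of the anaphase-promoting complex (-0.58 ± 0.16, adjusted p = 0.0656).

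Genes of late cell division often carry a CCAAT box and the letters TTTGAA, the cell cycle homology region, close to the start. Both were found in 25 of 42 mitosis genes with a window (59.5%), in 69 of 454 genes that fell (15.2%) and in 955 of 15614 of all genes (6.12%). TTTGAA alone was found in 76.2% of the mitosis genes and 15.2% of all genes, and CCAAT in 69.0% and 38.2%. The S phase genes held CCAAT in 62.5% and TTTGAA in 15% of 40 windows. Shown are Kif11 and Cdc20, 2 members that fell and were chosen after their values were seen, and Bub3, which holds the same letters and did not pass. Each is the 110 bases before the start in RefSeq, GRCm38.p6, with both motifs in capitals on either strand: Kif11 at chr19:37376272-37376381 (plus strand), Cdc20 at chr4:118437344-118437453 (minus strand) and Bub3 at chr7:131560260-131560369 (plus strand).
Kif11: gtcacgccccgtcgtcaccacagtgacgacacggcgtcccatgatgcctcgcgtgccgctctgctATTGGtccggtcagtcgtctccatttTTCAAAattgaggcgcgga
Cdc20: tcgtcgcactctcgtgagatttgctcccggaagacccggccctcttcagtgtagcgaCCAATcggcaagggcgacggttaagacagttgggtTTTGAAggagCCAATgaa
Bub3: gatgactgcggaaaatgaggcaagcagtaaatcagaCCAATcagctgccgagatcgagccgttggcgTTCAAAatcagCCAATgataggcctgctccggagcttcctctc
Kif11, the motor that separates the spindle poles, fell from 10.66 and 11.44 to 8.82 and 9.45 (-1.91 ± 0.23, adjusted p = 0.000371). Cdc20, the activator of the anaphase-promoting complex, fell from 9.77 and 10.20 to 8.15 and 8.59 (-1.61 ± 0.17, adjusted p = 0.000179). Both were lower on each 6 h array, while Bub3 differed little between the times.

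DNA replication and S phase genes moved less, with 9 of 49 measured members lower and none higher, against 2.76% and 2.89% of all genes. Their median was -0.44. Rrm2, the ribonucleotide reductase subunit that makes DNA building blocks, read 10.28 and 10.93 at 0 h and 9.20 and 8.6 at 6 h (-1.70 ± 0.26, adjusted p = 0.0018). Prim2, a subunit of the primase, read 9.85 and 10.33 and then 8.91 and 9.01 (-1.13 ± 0.18, adjusted p = 0.00233). Both kept their calls with any array left out. Mcm7, of the replicative helicase, read 10.38 and 10.55 and then 9.59 and 9.09 (-1.12 ± 0.25, adjusted p = 0.0191), and lost its call without either 0 h array or pretreated 6 h array 2 (adjusted p up to 0.207). The list's falls numbered 9 without pretreated 0 h array 1, 2 without pretreated 0 h array 2, 5 without pretreated 6 h array 1 and 2 without pretreated 6 h array 2. Of 17 genes for H3.3, its chaperones and the methylation of H3K36, 1 passed as lower, against 2.76% of all genes. It was Asf1b, the histone chaperone used in dividing cells, which read 11.19 and 11.41 and then 9.88 and 9.69 (-1.52 ± 0.17, adjusted p = 0.000263).

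Of cell cycle inhibitors and p53 targets 1 of 18 rose and 1 fell, against 2.89% and 2.76% of all genes. Fas, the death receptor, rose from 7.67 and 7.95 to 8.76 and 8.89 (1.01 ± 0.19, adjusted p = 0.00705). Cdkn2c, an inhibitor of the kinases Cdk4 and Cdk6, fell from 10.68 and 11.05 to 9.98 and 10.12 (-0.81 ± 0.16, adjusted p = 0.00983). Fas lost its call without pretreated 0 h array 1 or pretreated 6 h array 2 (adjusted p up to 0.0737), and Cdkn2c without pretreated 0 h array 2 or pretreated 6 h array 1 (up to 0.103).

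Macrophage lineage and migration receptors rose in 2 of 31 measured members and fell in 4, against 2.89% and 2.76% of all genes. Besides S1pr1 and Cx3cr1, the oxysterol receptor gene Gpr183 fell from 9.70 and 9.36 to 7.56 and 7.39 (-2.05 ± 0.19, adjusted p = 6.13e-05). These 3 receptors are known for positioning cells in tissue, and each kept its call with any array left out. The lineage factor Maf fell from 12.83 and 12.78 to 12.31 and 12.27 (-0.51 ± 0.10, adjusted p = 0.0101), and Spi1, which encodes PU.1, rose from 12.29 and 12.22 to 12.72 and 12.81 (0.51 ± 0.10, adjusted p = 0.011). Maf lost its call without pretreated 0 h array 1 or either 6 h array (adjusted p up to 0.0912), and Spi1 without pretreated 0 h array 2 or either 6 h array (up to 0.114). Rises numbered 1 and 2 without pretreated 0 h arrays 1 and 2 and 0 without either 6 h array, and falls numbered 3 or 4.

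The same 6 h exposure was measured in naive cells of the same array set, and the naive and pretreated comparisons share no arrays. Naive cells had 3653 calls (18.3%), of which 1492 were rises (7.48%) and 2161 falls (10.8%). Of the 576 rises in pretreated cells 503 also rose in naive cells, which is 87.3% of the pretreated and 33.7% of the naive rises. Of the 550 falls 515 were shared, 93.6% of the pretreated and 23.8% of the naive falls, and no gene passed in opposite directions. Across genes the 2 changes had a Pearson r of 0.826, a description over 19938 genes that are not independent. Mitosis genes fell by a median of 2.01 in naive cells, where 50 of 51 passed. The difference of the responses had a median of 0.41 and passed in no member. The GTPases rose by a median of 4.13 in naive cells, against 1.85 in pretreated cells. Their difference of responses had a median of -1.62 and passed in 2 of 10 members, as lower.

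The difference of the 6 h responses itself passed for 29 genes (0.145%), 23 with a lower response (0.115%) and 6 with a higher response (0.0301%) in pretreated cells. The balance depended on the model, with 92 higher and 153 lower with an additive array-set term, 161 higher and 141 lower with the half-set as a block, and 0 higher and 14 lower in array set 1 alone. Cxcl9 changed by 7.12 in naive cells and 1.90 in pretreated cells, a difference of -5.22 ± 0.24 (limma adjusted p = 6.65e-07). It read 6.80 and 6.29 on the naive 0 h arrays and 13.64 and 13.70 on the naive 6 h arrays. Pretreated cells thus began far above naive cells and ended at 13.45 and 13.56, just below them. Gbp4 (-4.16 ± 0.59), Iigp1 (-3.78 ± 0.38), BC023105 (-3.68 ± 0.53), Acod1 (-2.77 ± 0.39), Gm4951 (-2.70 ± 0.29) and Slamf8 (-2.53 ± 0.43) also had the lower response. Tap1, the peptide transporter gene, named after its values were seen, had a difference of -1.38 ± 0.17. The calls of Gbp4, BC023105, Acod1, Slamf8 and Tap1 did not hold throughout when 1 of 8 arrays was left out. Their differences stayed negative, from -3.37 to -4.96 for Gbp4, -2.83 to -4.53 for BC023105 and -2.40 to -3.14 for Acod1. Those of Slamf8 ran from -2.06 to -2.99 and those of Tap1 from -1.30 to -1.47. With each of 8 arrays left out in turn Cxcl9, Iigp1, Gm4951 and Rasgrp1 kept the call every time, while the count of genes was 18 and 5 without naive 0 h arrays 1 and 2, 4 and 157 without naive 6 h arrays 1 and 2, 38 and 9 without pretreated 0 h arrays 1 and 2, and 4 without either pretreated 6 h array.

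**Figure D3:**
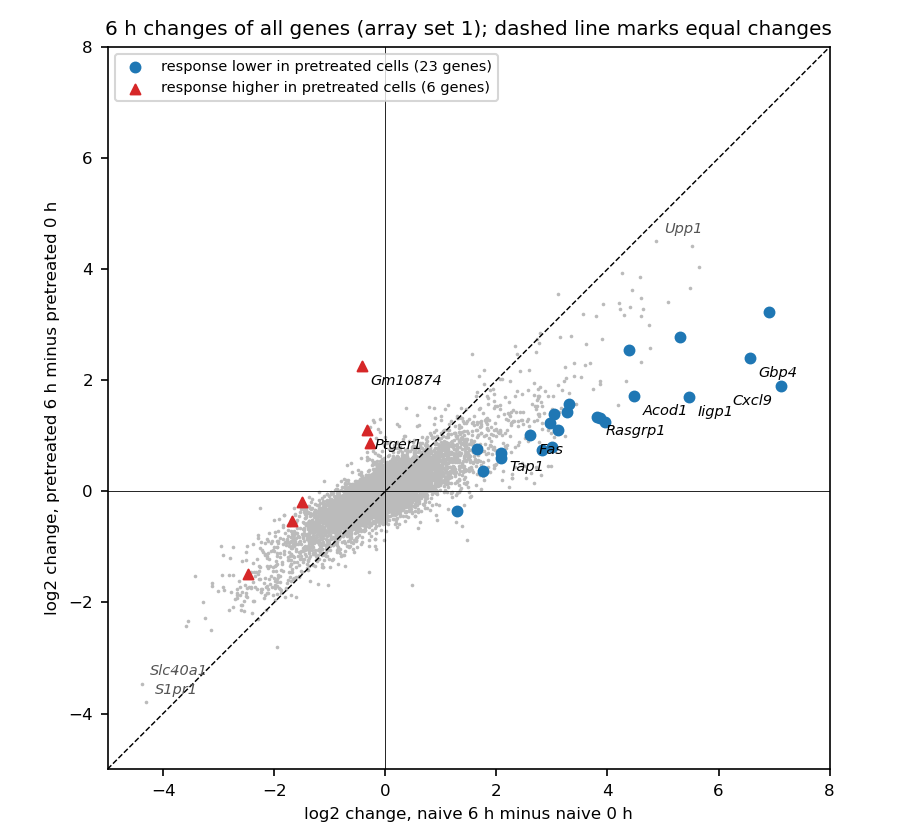
Log2 change at 6 h in naive cells (horizontal axis) and pretreated cells (vertical axis) for all 19938 genes, with the 29 genes whose responses differed in colour and a dashed line of equal changes. Blue points lie below the line, from Cxcl9 at 7.12 and 1.90 to Fas at 2.61 and 1.01, and red triangles lie above it.

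The 23 genes with the lower response fell into groups by their level at 0 h in array set 2, whose arrays enter no 6 h mean but do enter the pooled spread behind the tests. In that set 93 genes (0.466%) differed between pretreated and naive cells at 0 h, 88 higher (0.441%) and 5 lower (0.0251%). Of the 23 genes 13 were among those 88, Cxcl9, Gbp4, Iigp1, BC023105, Acod1, Gm4951, Slamf8, Zbp1 and Tap1 with them. The 0 h and 6 h level differences share their 0 h or 6 h arrays with the responses and are given as a description. In array set 1 these 13 stood between 1.02 and 5.06 above naive cells at 0 h (median 2.19). At 6 h they differed from naive cells by -0.83 to 0.26 (median -0.06), and in 5 of them both pretreated arrays lay below both naive arrays. The other 10 were not called at 0 h. Their 0 h levels differed by a median of 0.20 and their 6 h levels by a median of -1.67, with pretreated cells lower in each of the 10 at 6 h, and in 9 of them both pretreated arrays lay below both naive arrays.

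Rasgrp1, an activator of Ras, belongs to those 10 and read 6.96 and 7.07 at 0 h and 8.31 and 8.41 at 6 h in pretreated cells. On the naive arrays it read 6.64 and 6.61 and then 10.72 and 10.16, and its responses differed by -2.47 ± 0.25. Fas read 7.67 and 7.95 and then 8.76 and 8.89 in pretreated cells, and 7.89 and 7.92 and then 10.71 and 10.32 in naive cells (-1.60 ± 0.27). Both genes began at about the naive level and ended below it on each array. Il18rap, a chain of the interleukin-18 receptor, and Stx11, a membrane fusion protein, were alike, with differences of -1.84 ± 0.26 and -1.65 ± 0.25. Rasgrp1, Il18rap and Stx11 were named after their values were seen. Cfb was the exception among the 10, with a pretreated minus naive level of 2.23 at 0 h and -0.32 at 6 h (difference of responses -2.55 ± 0.37). C1s1, a complement protease gene, differed by -2.07 ± 0.28 and stayed under log2 6.5 on all 4 pretreated arrays. Of these, Rasgrp1 kept its call without any of the 8 arrays, and Fas kept it in 1 of 8 cases, Il18rap, Cfb and C1s1 in 2 and Stx11 in 3.

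The 6 genes with the higher response in pretreated cells were of a different make. Gm10874 read 7.81 and 8.09 at 0 h and 9.96 and 10.44 at 6 h in pretreated cells, and 9.18 and 9.95 and then 9.35 and 8.94 in naive cells (2.67 ± 0.37). Ptger1, a prostaglandin E2 receptor, read 7.99 and 8.09 and then 9.08 and 9.20 in pretreated cells, and 8.78 and 9.07 and then 8.66 and 8.52 in naive cells (1.43 ± 0.18). In these 2 genes both pretreated arrays lay below both naive arrays at 0 h and above them at 6 h. In array set 2 their pretreated minus naive levels at 0 h were 0.04 for Gm10874 and -0.15 for Ptger1, against -1.61 and -0.89 in set 1. Havcr2, the checkpoint receptor TIM-3, read 10.46 and 10.76 and then 10.36 and 10.48 in pretreated cells, but 10.60 and 10.27 and then 9.0 and 8.88 in naive cells (1.30 ± 0.22). Lpxn, an adhesion adaptor (1.14 ± 0.18), and Nt5dc2 (0.99 ± 0.15) fell in both kinds of cell, by less in pretreated cells. 4930404N11Rik (1.15 ± 0.20) crossed as Gm10874 and Ptger1 did, from a pretreated minus naive level of -0.66 at 0 h to 0.49 at 6 h. Its difference at 0 h in array set 2 was -0.04. No gene of the 6 kept its call throughout when each of 8 arrays was left out. Ptger1 kept it most often, in 4 of 8, and Havcr2 in 0.

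**Figure D4:**
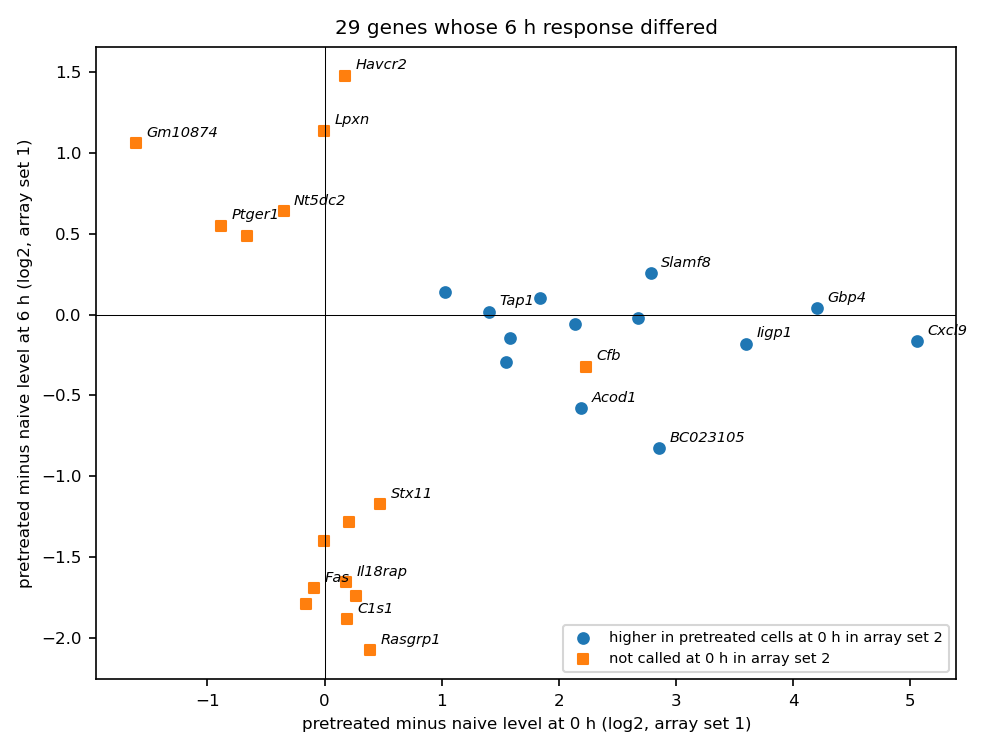
Pretreated minus naive log2 level at 0 h (horizontal axis) against the same difference at 6 h (vertical axis) in array set 1 for the 29 genes whose 6 h responses differed. Circles, the genes called higher at 0 h in array set 2, spread to 5.06 on the right and lie between -0.83 and 0.26 at 6 h, while most squares lie near 0 at 0 h and down to -2.08 or up to 1.48 at 6 h.

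Classes drawn from array set 2 were then read in array set 1. The 88 genes higher in pretreated cells at 0 h in set 2 were higher in 88 of 88 cases in set 1, by a median of 0.99, against 0.02 for all genes. They rose by a median of 1.89 in naive cells and 0.85 in pretreated cells, and 63 of the 88 passed as rises in pretreated cells. At 6 h their levels differed by a median of -0.01, with 44 of the 88 above the naive level. Another 591 genes rose in naive cells at 3 h in set 2 and were not called higher in pretreated cells at 0 h there. That they were not called does not make their 0 h levels equal. In set 1, 407 of the 591 were above the naive level at 0 h, against 11215 of all 19938 genes. At 6 h the 591 rose by a median of 0.94 in naive and 0.54 in pretreated cells. Their levels at 0 h differed by a median of 0.11 and at 6 h by -0.21, and 143 of the 591 were above the naive level at 6 h, against 11139 of all 19938 genes. Of the difference calls, 13 fell in the first class and 8 in the second, all with the lower response.

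At 3 h pretreated cells had 569 calls (2.85%), 370 rises (1.86%) and 199 falls (0.998%). The 3 h arrays belong to array set 2 and the 6 h arrays to array set 1, so an effect of the hour and one of the set cannot be told apart. The 3 h and 6 h comparisons share no arrays. Of the 576 rises at 6 h 232 were shared with 3 h, 40.3% of those at 6 h and 62.7% of those at 3 h. Of the 550 falls 82 were shared, 14.9% and 41.2%. Over all genes r was 0.606, again as a description. Socs1 (3.3 at 3 h and 3.19 at 6 h), Batf2 (3.37 and 3.28), S1pr1 (-3.35 and -3.79) and the GTPase list (medians 2.01 and 1.85, with 10 of 10 passing at each time) had like values at the 2 times. Nos2 passed at 3 h (3.21) and not at 6 h (1.57), and the difference between them did not pass (adjusted p = 0.599).

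The difference between the 6 h and 3 h responses passed in 4 genes (0.0201%), 1 higher (0.00502%) and 3 lower (0.015%). Plk1 changed by -0.21 at 3 h and -1.82 at 6 h (difference -1.60 ± 0.21, adjusted p = 0.0495). The mitotic kinesin gene Kif18b changed by -0.40 and -1.73 (-1.33 ± 0.17), Nt5dc2 by -0.37 and -1.48 (-1.12 ± 0.15) and Plac8 by 0.79 and 2.47 (1.68 ± 0.23), each at an adjusted p of 0.0495. Plk1 read 11.94 and 11.89 at 0 h and 11.74 and 11.66 at 3 h in set 2, while Plac8 read 5.94 and 5.69 and then 6.61 and 6.62 there and 6.66 and 6.90 and then 9.02 and 9.48 in set 1. Both had a larger change at 6 h on each array, and each of the 4 calls held in 1 or 2 of 8 cases with an array left out. The count was 80 and 1 without pretreated 0 h arrays 1 and 2, 1 and 0 without pretreated 0 h arrays 3 and 4, 0 without either 3 h array, and 3 and 2 without pretreated 6 h arrays 1 and 2, where limma with all arrays had 1458 genes at an unadjusted p under 0.05.

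Mitosis genes as a list changed by a median of -0.32 at 3 h, where 1 of 51 passed, and by -1.63 at 6 h. The difference of the 2 responses had a median of -1.31 and passed in 1 of 51 members, Plk1. Relative to the 0 h mean of the same set their median was -0.25 and -0.40 on the 3 h arrays and -1.84 and -1.44 on the 6 h arrays. Glycolysis genes went from a median of -0.11 and 1 rise at 3 h to 0.44 and 10 rises at 6 h, but the difference of the responses passed in 0 of 27 members, and the rises at 6 h were 2 without pretreated 6 h array 2. Slc40a1 changed by -0.49 at 3 h and -3.46 at 6 h (difference -2.97 ± 0.46, adjusted p = 0.0599), Chrm3 by 0.03 and 3.56 (3.52 ± 0.60, adjusted p = 0.0678) and Ak4 by -0.23 and 3.39 (3.62 ± 0.84, adjusted p = 0.161). These 3 had the larger change at 6 h, and their differences did not pass. Ak4 and Chrm3 differed between the 0 h arrays of set 2, at 7.01 and 8.87 and at 7.16 and 8.51.

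**Figure D5:**
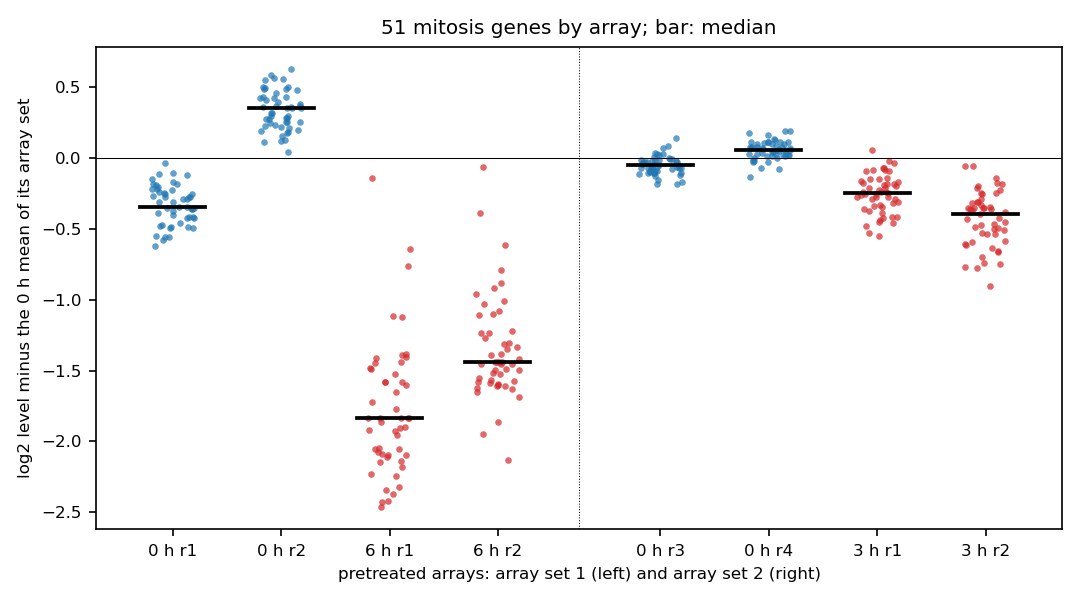
Log2 level of 51 mitosis genes on the 8 pretreated arrays, each minus that gene's 0 h mean in the same array set, with the median as a bar. The medians are -0.35 and 0.35 on the 0 h arrays and -1.84 and -1.44 on the 6 h arrays of set 1, and -0.05 and 0.06 at 0 h and -0.25 and -0.40 at 3 h in set 2.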

How the data were processed

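RNA of 16 samples was measured on 1-colour Affymetrix arrays, with 2 arrays per group and array set. The authors deposited log2 intensities. How these were corrected, normalized and summarised is not stated by the labels, and a different procedure could move the folds. The lowest and highest array medians were 7.151 and 7.226 for set 1 but 6.886 and 6.997 for set 2, so levels were compared only within a set. The numbering in the array titles gave the array sets and the half-sets used as a block. The number of arrays limits the precision. Of 35557 features 21789 had 1 gene symbol in the platform annotation, 1621 several and 12147 none; 21698 matched a RefSeq gene (GRCm38.p6) by identifier. For 999 genes with more than 1 feature the brightest was used.

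The model in limma (3.58.1, under R 4.3.3) took all 16 arrays in 8 combinations of group and set, leaving 8 residual degrees of freedom beside 4.26 prior ones. Calls are Benjamini-Hochberg adjusted p-values under 0.05, over 19938 genes. The 31 lists (699 of 765 members measured) and all rules were chosen with earlier results of these data known. Named genes were the 12 largest called rises and falls with a mean of at least log2 6.5, up to 6 called and 3 other members per list, the 8 largest differences of responses each way, and a set of interferon, class II and H3.3 genes; exceptions are said. Alternatives changed the arrays fitted, the array-set term, the half-set block, a dim filter, the feature rule, quantile normalization, the variance model and array weights, and left out each array in turn. No replicate numbers in the labels pair arrays. Deviations of the same half-set correlated by 0.152 to 0.662 in array set 1, with 0.662 between pretreated 0 h and 6 h. In set 2 they correlated by 0.387 to 0.644, except for 0.082 between pretreated 0 h and 3 h, under the limit of 0.1. Because of that value no pairing was taken, though the other deviations went together, and the block is an alternative.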

Additional observations from a re-analysis of the deposited data

Results flagged for a closer look

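Each gene here was singled out because its response differed between 2 groups of cells by a test of the difference itself. Between pretreated and naive cells at 6 h 29 genes differed. Of those named, the response in pretreated cells was lower by the log2 values of -5.22 for Cxcl9, -4.16 for Gbp4, -3.78 for Iigp1, -3.68 for BC023105, -2.77 for Acod1, -2.70 for Gm4951, -2.55 for Cfb, -2.53 for Slamf8 and -2.47 for Rasgrp1. The values were -2.07 for C1s1, -1.84 for Ifi205, -1.84 for Il18rap, -1.74 for Zbp1, -1.65 for Stx11, -1.60 for Fas, -1.38 for Tap1 and -0.89 for Psmb9. The differences of Slamf8, Zbp1 and Fas lay close under the threshold (limma adjusted p = 0.0496, 0.0490 and 0.0481). The response was higher in Gm10874 (2.67), Ptger1 (1.43), Havcr2 (1.30), 4930404N11Rik (1.15), Lpxn (1.14) and Nt5dc2 (0.99). Havcr2 and 4930404N11Rik lay as close under the threshold (limma adjusted p = 0.0490 and 0.0496). Between 6 h and 3 h in pretreated cells 4 genes differed, Plk1 (-1.60), Kif18b (-1.33), Nt5dc2 (-1.12) and Plac8 (1.68). No group had 4 or more arrays in 1 array set, so single arrays were not tested as outliers.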

How the results depend on the processing

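The 1126 calls at 6 h were 741 in a fit of the 4 arrays alone and 1895 with the half-set replicate block, which gave 302 for the difference from naive cells, 1272 at 3 h, 147 for 6 h against 3 h and 238 at 0 h in set 2, on a pairing that the labels do not give. With this block the rises were 6 among macrophage activation enzymes, 9 in the TLR and NF-kB pathway, 19 among antiviral genes and 14 in glycolysis, and 17 S phase genes fell. The difference from naive cells counted 14 in array set 1 alone and 245 with an additive array-set term, which gave 923 at 3 h, 102 for 6 h against 3 h and 230 at 0 h. For 6 h against 3 h the count was 22 after quantile normalization, 8 with a trended robust variance and 0 with array weights in limma (994 at an unadjusted p under 0.05), which gave 245 at 3 h. With 1 array left out the ranges were 486 to 861 at 6 h, 4 to 157 for the difference from naive cells, 0 to 80 for 6 h against 3 h, 2217 to 2981 in naive cells at 6 h, 219 to 429 at 3 h and 61 to 75 at 0 h in set 2. The cause was not tested. Other counts stayed within 1.5 times. The counts per list and the differences with an array left out were chosen after seeing the data.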

Other observations

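Alternative activation genes, the programme that interleukin-4 drives, rose in 3 of 25 measured members and fell in 2, where 2.89% and 2.76% of all genes did. With 1 array left out 2 members rose each time, and 3, 0, 0 and 1 fell without pretreated 0 h arrays 1 and 2 and pretreated 6 h arrays 1 and 2. Flt1, a receptor for vascular endothelial growth factor, read 8.34 and 8.45 at 0 h and 10.30 and 9.90 at 6 h (1.71 ± 0.20, adjusted p = 0.000363). Il4ra, the interleukin-4 receptor chain, read 11.77 and 11.70 and then 12.78 and 12.77 (1.04 ± 0.12, adjusted p = 0.000272). Both were higher on each 6 h array and kept their calls with any of the 4 arrays left out. The mannose receptor gene Mrc1 read 12.18 and 12.72 and then 11.77 and 11.99 (-0.57 ± 0.20, adjusted p = 0.14).

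Of 27 measured amino acid response and one-carbon genes Wars alone passed. This list and those of cholesterol and heat shock genes had 1 call each, where 5.65% of all genes passed. Wars, the tryptophanyl-tRNA synthetase, rose from 11.30 and 11.55 to 13.17 and 13.35 (1.83 ± 0.15, adjusted p = 3.87e-05) and kept its call with any array left out. Of 22 cholesterol genes Abca1, the cholesterol exporter, alone passed, from 11.82 and 12.05 to 10.00 and 10.63 (-1.62 ± 0.37, adjusted p = 0.0204), and lost its call without either 0 h array or pretreated 6 h array 1 (adjusted p up to 0.21). Of 21 heat shock genes Dnajb1, an Hsp40 cochaperone, alone passed (0.86 ± 0.15, adjusted p = 0.00465), and lost its call without pretreated 6 h array 2 (0.0594). None of 25 lysosome genes passed in limma, 2 were at an unadjusted p under 0.05, and the median change was -0.06, while 4 were called lower with the half-set as a block.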
